A study of Mus musculus with 4 samples.

Results

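The genes described here are the Zscan4 copies Zscan4b, Zscan4c, Zscan4d, Zscan4e and Zscan4f and the zinc finger genes Zfp352 and Zfp560, which belong to the transcripts of the mouse 2-cell (2C) stage. They were picked out by their symbols in the deposited count table, and the choice was made with earlier results of these data known. Of these 7 genes, 6 had a row among the 26022 rows of the table. Zscan4e had none and was not analysed here. All 6 passed the filter on low counts, as did 14259 genes in all.

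Embryos of outbred ICR mice were compared at the late 2C stage, after 16 h of culture with 200 μM Mdivi-1, a cell-permeable small-molecule inhibitor of the mitochondrial fission protein DRP1, or without it (Control). Each group had 2 libraries, made from 8 to 10 pooled embryos per group and amplified by Smart-Seq2, which copies full-length polyadenylated RNA and keeps no strand. No vehicle in the Control medium and no separate litters are stated in the sources used here, so p-values measure the spread between these libraries, which may be technical. In pooled whole embryos, more embryos or blastomeres that transcribe a gene and more RNA per blastomere cannot be told apart.

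In the mouse, the embryo's own genome is switched on at the 2C stage, and Zscan4 is among the best known genes of that wave. Zscan4 proteins join a SCAN domain, which pairs with other SCAN proteins, to zinc fingers that bind DNA. In mouse embryonic stem cells (ESCs) Zscan4 is on in a small and changing share of cells, and it is known there for telomere lengthening by recombination. The tandem copies arose by duplication, and Zscan4d has been described as the main copy of 2C embryos and Zscan4c as that of ESCs. Zfp352 and Zfp560 are zinc finger genes of the same stage that lie elsewhere in the genome.

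The Zscan4 copies sit in one block on mouse chromosome 7 (GRCm38, GENCODE M21). Zscan4b lies at chr7:10900740-10905050 on the minus strand, Zscan4c at chr7:11005745-11010547 on the plus strand, Zscan4d at chr7:11161374-11166159 on the minus strand and Zscan4f at chr7:11397915-11402318 on the plus strand. Zscan4e is annotated between Zscan4d and Zscan4f, at chr7:11306378-11310682. Zfp352 lies at chr4:90218820-90225702 on the plus strand and Zfp560 at chr9:20345136-20385177 on the minus strand.

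Promoter windows of the 6 genes, 250 bases before to 50 bases after the annotated start, were taken from RefSeq (GRCm38.p6). Those of Zscan4c, Zscan4d and Zfp352 are printed because they show the letters that the Zscan4 copies share and the repeat that sets Zfp352 apart. In the Zscan4 windows, at chr7:11005495-11005794 on the plus strand and chr7:11166099-11166398 on the minus strand, capitals mark TGATAGAATCA, TATAAA and CCAAT, in that order. In the Zfp352 window, at chr4:90218570-90218869 on the plus strand, capitals mark TAATCC. All are written 5′ to 3′.
Zscan4c: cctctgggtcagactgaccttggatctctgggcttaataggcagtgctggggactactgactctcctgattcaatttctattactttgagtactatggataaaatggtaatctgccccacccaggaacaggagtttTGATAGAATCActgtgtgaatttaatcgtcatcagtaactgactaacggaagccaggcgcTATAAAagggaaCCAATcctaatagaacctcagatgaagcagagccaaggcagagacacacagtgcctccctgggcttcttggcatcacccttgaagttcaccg
Zscan4d: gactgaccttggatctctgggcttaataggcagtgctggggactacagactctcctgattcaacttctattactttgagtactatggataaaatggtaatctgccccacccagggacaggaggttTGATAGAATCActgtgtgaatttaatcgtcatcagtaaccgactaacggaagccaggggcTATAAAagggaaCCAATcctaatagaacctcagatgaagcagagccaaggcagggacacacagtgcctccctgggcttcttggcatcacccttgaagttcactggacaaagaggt
Zfp352: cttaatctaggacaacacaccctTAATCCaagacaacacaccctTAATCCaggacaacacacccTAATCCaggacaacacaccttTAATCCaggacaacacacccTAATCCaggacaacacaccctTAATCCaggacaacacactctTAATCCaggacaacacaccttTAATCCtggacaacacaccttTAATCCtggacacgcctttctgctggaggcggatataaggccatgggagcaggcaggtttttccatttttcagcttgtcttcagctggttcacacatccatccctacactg

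5 motifs were searched on both strands, and no match overlapped another. The pattern of TGAT, any 2 bases and AATCA, of the kind bound by double homeodomain proteins such as DUX, was in 68 of 32851 promoter windows of this length (0.207%), and all 4 Zscan4 windows were among them, each with the letters TGATAGAATCA. TATAAA, the TATA box, was in 13.6% of windows and CCAAT in 37.4%, and each of the 4 Zscan4 windows held both. The first base of TGATAGAATCA lay at -91 in Zscan4b and Zscan4f, at -114 in Zscan4c and at -125 in Zscan4d. TATAAA followed at -31, -31, -54 and -65 in the same order of genes. TAATCC, the letters preferred by homeodomain proteins such as OTX2 and CRX, was in 7.06% of windows and occurred 9 times in that of Zfp352, in steps of 20 to 21 bases between -227 and -61. No other window held as many (1 of 32851, 0.00304%). TGCACAC, letters bound by mouse ZSCAN4, was in 4.4% of windows and in 0 of these 6. The window of Zfp560 held no match to any of the 5, and it had 58.7% GC and 23 CpG, against 46.3% to 47.7% GC and 1 to 4 CpG in the others. A match describes letters and not binding, and promoter activity was not measured.

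**Figure D1:**
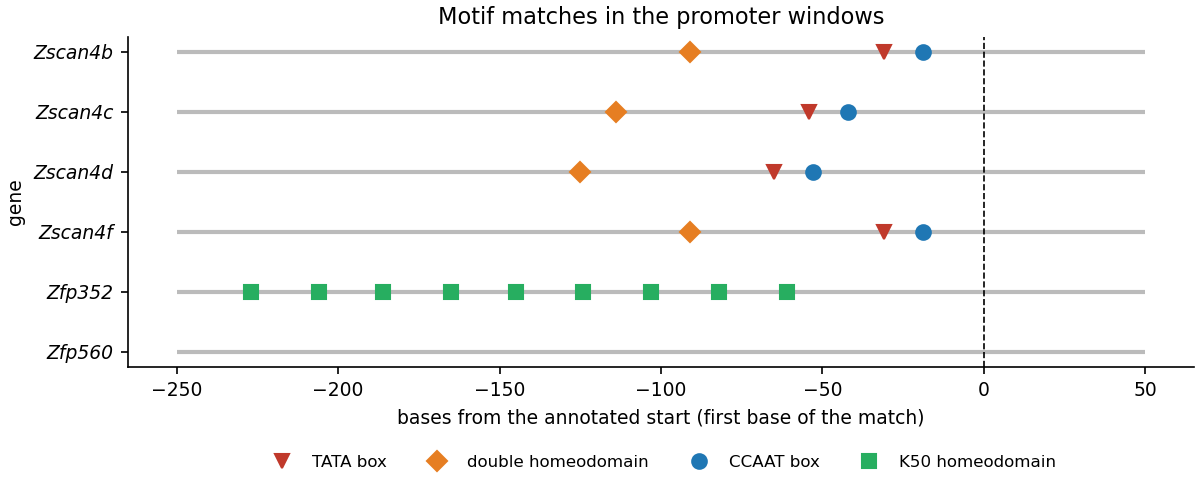
Motif matches in the promoter windows of the 6 genes. The x axis gives bases from the annotated start to the first base of the match, and each row is a gene. The 4 Zscan4 rows hold the same 3 motifs at the same spacing, shifted with the annotated start, Zfp352 holds 9 TAATCC matches in a row and Zfp560 holds none.

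The copies are so alike that reads fitting several of them drop out of counts of uniquely mapped reads. The 4 Zscan4 promoter windows were 95.3% to 99.3% identical over their aligned bases, with 2 to 13 mismatches between pairs. Their annotated transcripts were 96.6% to 99.6% identical, and Zscan4c and Zscan4f differed at 7 aligned bases. The deposited counts hold uniquely mapped reads. Of the words of 150 bases in each transcript, those found in no other gene's transcript made up 87.0% for Zscan4d, 39.0% for Zscan4c, 31.6% for Zscan4b and 13.8% for Zscan4f. For Zfp352 and Zfp560 they made up 100%. The split between Zscan4 copies is therefore uncertain, while the counts of Zfp352 and Zfp560 do not share such words with any other gene.

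The raw counts summed to 17712075 and 18500928 in Mdivi-1 replicates 1 and 2 and to 20077326 and 18279626 in Control replicates 1 and 2, with 14793 to 16311 genes counted per library. Levels are CPM, counts set against the size of the library after scaling with TMM factors, which were 1.05 and 1.04 in the Mdivi-1 libraries and 1.10 and 0.834 in the Control libraries. Control replicate 2 stood apart from the other libraries in its factor and in the number of genes, the lowest of the 4. Ribosomal protein transcripts made up 2.18% and 1.90% of counts in Mdivi-1 libraries and 3.08% and 4.24% in Control libraries. Their part in the results was not tested. Of 8 markers of 2C embryos outside the genes described here, all 8 were counted in each library. Of 10 markers of later embryos, Cdx2, Sox17 and Elf5 were at 0 in all 4 libraries. The summed level of the list was 58.2 and 59.1 CPM in Mdivi-1 embryos and 55.2 and 68.3 CPM in Control embryos. Most of it came from Gata3 and Tfap2c, which went opposite ways. Gata3 had 26.4 and 22.5 CPM in Mdivi-1 libraries against 10.5 and 9.45 CPM in Control libraries. Tfap2c had 26.2 and 29.1 CPM in Mdivi-1 libraries against 41.2 and 49.9 CPM in Control libraries. Of 9 cumulus and granulosa markers, Amh, Inha, Ptx3 and Has2 were at 0 in all 4 libraries, and the sum of the list was 7.78 to 18.3 CPM per library.

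Every one of the 6 genes had its 2 Mdivi-1 libraries above its 2 Control libraries. Over all genes tested, 26.1% did so, and 51.3% had a log2 fold change above 0. Because the 6 genes were chosen with earlier results of these data known, their counts here are not independent evidence of their direction. The mean level in Mdivi-1 embryos was 7.25 times that in Control embryos for Zscan4b, 8.34 times for Zscan4c, 2.43 times for Zscan4d, 2.81 times for Zscan4f, 2.97 times for Zfp352 and 2.29 times for Zfp560. By the edgeR quasi-likelihood test, 0 of 14259 genes passed an adjusted p of 0.05 (0.0%), and hence none of the 6. At an unadjusted p under 0.05 by edgeR, 2268 of 14259 genes passed (15.9%), of which 1179 were higher in Mdivi-1 embryos (8.27%), and the 6 genes were all among these. A further 1089 genes were lower (7.64%), and 23.9% of all genes had both Mdivi-1 libraries below both Control libraries, with 0 of the 6 in either count. DESeq2, the tool of the study's methods, called 461 of 13982 genes higher at an adjusted p under 0.05 (3.3%), and these included all 6. So did the 455 of 18702 genes (2.43%) that edgeR called higher when no filter on low counts was applied.

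Zscan4d, the copy with the most counts, had 322.9 and 657 CPM in Mdivi-1 replicates 1 and 2, against 188 and 214 CPM in Control replicates 1 and 2. The groups did not overlap, but the lower Mdivi-1 library was only 1.51 times the higher Control library, and the Mdivi-1 libraries differed from each other by 2.04 times. The Control libraries lay close together. The mean was 490.1 ± 237 CPM in Mdivi-1 and 201 ± 18.4 CPM in Control embryos (SD, n = 2 each). On the log2 scale the difference for Zscan4d was 1.28 (standard error, SE, 0.39), with adjusted p = 0.209 by edgeR and adjusted p = 0.0179 by DESeq2.

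Zscan4c, best known from ESCs, had 140.0 and 350.3 CPM in the Mdivi-1 libraries, against 49.8 and 8.99 CPM in the Control libraries. It spread most among the Control libraries, where replicate 1 was 5.54 times replicate 2. The log2 fold change of 3.06 (SE 0.79) was the largest of the 6 and also the least precise, with adjusted p = 0.175 by edgeR and adjusted p = 6.57e-05 by DESeq2. Set against the higher Control library alone, the lower Mdivi-1 library was 2.81 times as high.

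Zscan4b, which encodes a shorter protein, was the lowest of the 6, with 18.6 and 47.6 CPM in Mdivi-1 libraries against 6.37 and 2.76 CPM in Control libraries. These levels rest on 346 and 913 counts in Mdivi-1 libraries and on 140 and 42 counts in Control libraries. The log2 fold change was 2.85 (SE 0.66), with adjusted p = 0.157 by edgeR and adjusted p = 0.00163 by DESeq2. Zscan4b and Zscan4c thus had the larger fold changes, and in both Mdivi-1 replicate 2 was the highest library and Control replicate 2 the lowest.

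Zscan4f did not follow that order. It had 144 and 145 CPM in the Mdivi-1 libraries, which differed by 1.01 times, against 35.2 and 67.5 CPM in the Control libraries, of which replicate 2 was here the higher. The mean was 144 ± 0.711 CPM in Mdivi-1 and 51.3 ± 22.8 CPM in Control embryos (SD, n = 2 each), and the log2 fold change was 1.49 (SE 0.38), with adjusted p = 0.173 by edgeR and adjusted p = 0.00949 by DESeq2.

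Zfp352, a gene of 2C embryos and of 2C-like ESCs, was even in the treated group, with 512 and 496 CPM in Mdivi-1 libraries against 211 and 128 CPM in Control libraries. It had the smallest unadjusted p of the 6 (0.00202 by edgeR, rank 186 of 14259 genes). The mean was 504 ± 10.9 CPM in Mdivi-1 and 169 ± 59.0 CPM in Control embryos (SD, n = 2 each). The log2 fold change was 1.57 (SE 0.34), with adjusted p = 0.153 by edgeR and adjusted p = 0.000354 by DESeq2.

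Zfp560 had 409 and 331 CPM in Mdivi-1 libraries against 111 and 212 CPM in Control libraries. As in Zscan4f, Control replicate 2 was the higher of the controls. The lower Mdivi-1 library was 1.56 times the higher Control library. Zfp560 had the smallest log2 fold change of the 6, 1.19 (SE 0.38), with adjusted p = 0.217 by edgeR and adjusted p = 0.0311 by DESeq2.

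**Figure D2:**
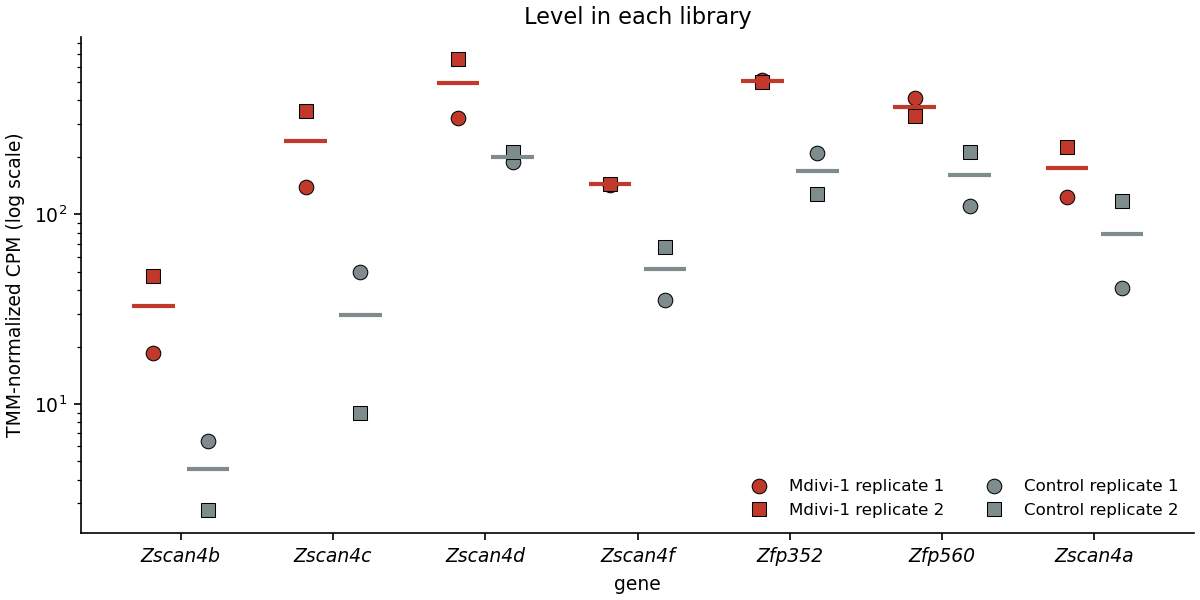
TMM-normalized CPM (log axis) of each gene in each of the 4 libraries, Mdivi-1 left of Control. For the 6 genes described, both Mdivi-1 points lie above both Control points. In Zscan4a, which is annotated as a pseudogene, the lower Mdivi-1 library (124 CPM) is close to the higher Control library (117 CPM).

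Zscan4a is annotated as a pseudogene in the same block, at chr7:10794242-10799057 on the minus strand, and is not one of the 6. It had 124 and 227 CPM in Mdivi-1 libraries against 40.8 and 117 CPM in Control libraries, with a log2 fold change of 1.15 (SE 0.53), with adjusted p = 0.337 by edgeR and adjusted p = 0.154 by DESeq2. Its groups were separated by 1.05 times only.

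Because the split of reads between copies is uncertain, the 4 Zscan4 rows were also summed. Reads that fit several copies stay missing from this sum. Copies with more sequence of their own weigh more in it, and in the shares given below. The sum was 625 and 1199.9 CPM in Mdivi-1 libraries against 279.6 and 293 CPM in Control libraries. The Control libraries were nearly equal, while the Mdivi-1 libraries were 2.18 and 4.19 times the Control mean. The mean of the sum was 913 ± 406 CPM in Mdivi-1 and 287 ± 9.79 CPM in Control embryos (SD, n = 2 each), a ratio of 3.18. With Zscan4a added, the sum was 749 and 1427 CPM in Mdivi-1 libraries and 320.5 and 411 CPM in Control libraries, a ratio of 2.98.

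The make-up of the sum differed between libraries. Zscan4d made up 51.6% (95% Wilson interval 50.7% to 52.6%) and 54.8% (54.1% to 55.4%) of the summed counts in Mdivi-1 libraries, against 67.3% (66.2% to 68.5%) and 73.0% (71.7% to 74.3%) in Control libraries. Zscan4c made up 22.4% and 29.2% in Mdivi-1 libraries, against 17.8% and 3.06% in Control libraries. The share of Zscan4d was lower, and that of Zscan4c higher, in both Mdivi-1 libraries than in both Control libraries. These intervals cover counting error only, since amplified reads without molecular tags are not independent molecules. The difference in shares between the groups was not tested over libraries. The share of Zscan4f was 23.0% and 12.1% in Mdivi-1 libraries and 12.6% and 23.0% in Control libraries, with the groups overlapping. That of Zscan4b was 2.97% and 3.97% in Mdivi-1 libraries and 2.28% and 0.939% in Control libraries.

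**Figure D3:**
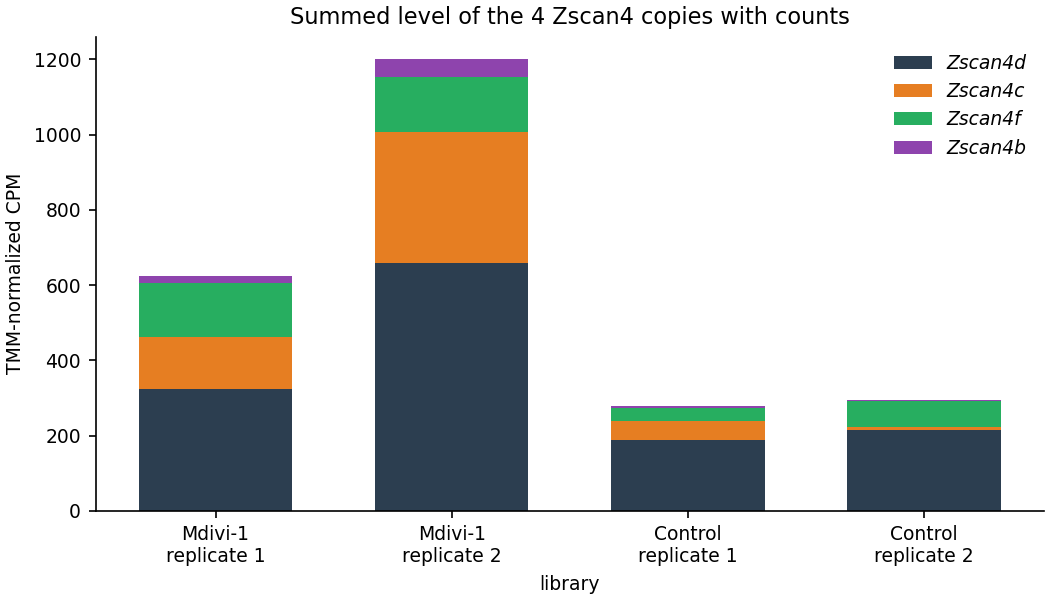
Summed TMM-normalized CPM of the 4 Zscan4 copies with counts, stacked by copy, in each library. The bars reach 625 and 1199.9 CPM in Mdivi-1 libraries and 279.6 and 293 CPM in Control libraries, and Zscan4c is the part that is nearly missing in Control replicate 2.

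Leaving out 1 library leaves its group with a single library, which is then assumed to vary like the other group, and the calls of DESeq2 changed in these smaller fits. When Mdivi-1 replicate 2 was left out, it called 0 of the 6 and 64 of 12530 genes higher (0.511%), with adjusted p between 0.0692 for Zfp352 and 0.617 for Zscan4d. The log2 fold changes in that fit were 1.59 for Zfp352, 1.48 for Zscan4f and 1.33 for Zfp560, about as large as with all libraries or larger, whereas those of Zscan4b, Zscan4c and Zscan4d were smaller, at 2.01, 2.24 and 0.67. Without Mdivi-1 replicate 1, it called Zscan4b, Zscan4c and Zscan4d, against 54 of 12289 genes (0.439%). Without Control replicate 1 it called 5 of 6, against 5.62% of all genes higher, with Zfp560 at an adjusted p of 0.0924, and without Control replicate 2 it called 6 of 6, against 4.26%. Both Mdivi-1 libraries lay above both Control libraries in each of the 6 genes, so leaving out 1 library could hardly turn the direction. The log2 fold change accordingly stayed above 0 for all 6 genes in each of these fits. Over all alternatives, that of Zscan4c had the widest range, from 2.22 without Mdivi-1 replicate 2 to 4.76 without Control replicate 1 by edgeR, and that of Zscan4d came nearest to 0, at 0.66 by edgeR without Mdivi-1 replicate 2. With limma-voom, 3 of the 6 passed an adjusted p of 0.05 (Zscan4c, Zscan4f and Zfp352), against 0.877% of all genes higher. With the likelihood ratio test of edgeR, 5 of the 6 passed, against 3.59% of all genes higher.

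**Figure D4:**
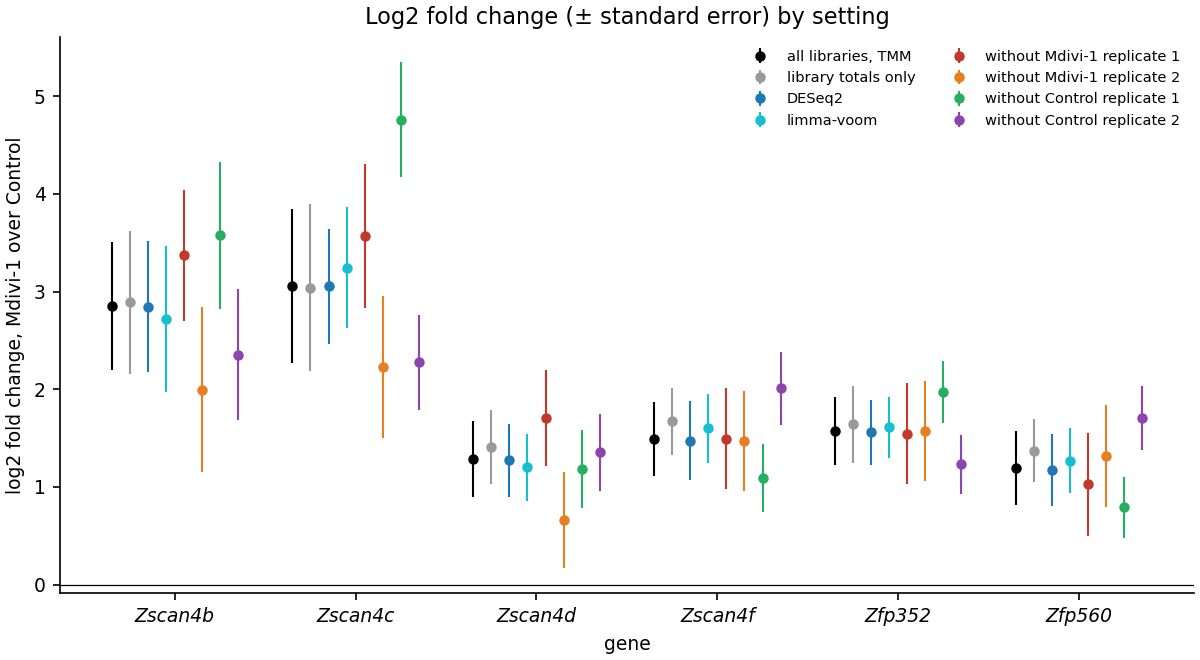
Log2 fold change, Mdivi-1 over Control, of each gene under the fit reported and under alternatives, with standard errors as bars. All points lie above 0, those of Zscan4b and Zscan4c lie highest and vary most, and the lowest of Zscan4d, at 0.66, is the fit without Mdivi-1 replicate 2.

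To compare levels between genes, CPM was divided by the exonic length in kilobases. On this scale Zfp352 had 225 and 218 CPM per kb in Mdivi-1 libraries and 92.8 and 56.1 CPM per kb in Control libraries, and Zscan4d had 142 and 289 CPM per kb in Mdivi-1 libraries and 82.9 and 94.3 CPM per kb in Control libraries. These were the highest of the 6 genes in each library, and which of the pair came first changed within both groups, so their order is not beyond the spread. Zfp352 ranked 204 and 207 of 14252 genes in Mdivi-1 libraries and 519 and 1028 in Control libraries. Zscan4c, Zscan4f and Zfp560 followed. Zscan4c had 61.5 and 154 CPM per kb in Mdivi-1 libraries and 21.9 and 3.95 in Control libraries, Zscan4f 73.3 and 73.9 in Mdivi-1 libraries and 17.96 and 34.4 in Control libraries, and Zfp560 80.2 and 64.9 in Mdivi-1 libraries and 21.9 and 41.7 in Control libraries. These ranges overlap within each group. Zscan4b was the lowest in every library, with 10.3 and 26.4 CPM per kb in Mdivi-1 and 3.54 and 1.53 CPM per kb in Control libraries.

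The order changed when the level was set against the sequence that can be told apart. Per 1000 words of 150 bases found in no other gene, an alternative chosen after seeing the data, Zscan4f came first in every library, with 619 and 624 CPM in Mdivi-1 libraries and 152 and 291 CPM in Control libraries. Zscan4d had 175 and 356 CPM on this scale in Mdivi-1 libraries and 102 and 116 CPM in Control libraries. Which Zscan4 copy was the most abundant therefore depended on the scale. The fold changes compare a gene with itself, so dividing all its libraries by the same length could not change them. Whether the placing of reads among copies affected the fold changes was not tested.

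Proteins known to switch on Zscan4 in ESCs did not all have higher transcript levels. Of 5 such genes tested, the log2 fold change was positive in 2 and negative in 3 (median -0.23), and DESeq2 called 2 lower, against 2.8% of all genes. These were Dppa2 and Dppa4, partner DNA-binding proteins that act upstream of Dux in ESCs. Dppa2 had 136 and 169 CPM in Mdivi-1 libraries against 402 and 427 CPM in Control libraries, with a log2 fold change of -1.44 (SE 0.30), with adjusted p = 0.149 by edgeR and adjusted p = 0.000259 by DESeq2. Dppa4 had 181 and 289 CPM in Mdivi-1 libraries against 514 and 675 CPM in Control libraries, with a log2 fold change of -1.34 (SE 0.35), with adjusted p = 0.179 by edgeR and adjusted p = 0.00366 by DESeq2. Neither gene overlapped between groups, and by edgeR neither passed. Duxf3, the row of Dux, whose double homeodomain protein switches on 2C genes in ESCs, was low, with 0.966 and 6.15 CPM in Mdivi-1 libraries and 1.64 and 1.18 CPM in Control libraries, which overlapped. Nelfa, also tied to the 2C-like state, had 29.4 and 28.9 CPM in Mdivi-1 and 29.3 and 39.3 CPM in Control libraries.

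Genes tied to what ZSCAN4 does in ESCs, namely telomere proteins, meiotic recombination genes and DNA methylation genes, had a median log2 fold change of -0.08 over 17 tested, against 0.03 over all genes. Of the 17, 8 were positive and 9 negative, where 51.3% of all genes were positive. DESeq2 called 0, where it called 3.3% of all genes higher and 2.8% lower. At an unadjusted p under 0.05 by edgeR 1 was higher, against 8.27% of all genes. The gene higher by edgeR was Acd, which encodes TPP1 of the telomere-capping shelterin complex. It had 44.4 and 37.9 CPM in Mdivi-1 libraries against 14.7 and 17.9 CPM in Control libraries (log2 fold change 1.33, adjusted p = 0.193 by edgeR and adjusted p = 0.0732 by DESeq2). Tinf2, another shelterin gene, had 57.1 and 74.2 CPM in Mdivi-1 libraries against 45.8 and 31.4 CPM in Control libraries. Uhrf1, a cofactor of maintenance DNA methylation, had 66.8 and 89.1 CPM in Mdivi-1 libraries against 50.9 and 45.9 CPM in Control libraries. These are transcript levels, and protein was not measured. Spo11 was at 0 in all 4 libraries. Trim28, the corepressor of KRAB zinc finger proteins, had 60.3 and 66.1 CPM in Mdivi-1 libraries against 109.9 and 90.2 CPM in Control libraries (log2 fold change -0.66, edgeR adjusted p = 0.331).

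A list of 32 other SCAN-domain genes, of which 30 had a row, had a median log2 fold change of -0.16 over 25 tested. The list was drawn up by name and may not hold every such gene of the mouse. Of these, 10 were positive and 15 negative, where 51.3% of all genes were positive. By edgeR 0 reached an unadjusted p under 0.05, against 15.9% of all genes in either direction. DESeq2 called 0, where it called 3.3% of all genes higher and 2.8% lower. The smallest p by edgeR belonged to Zkscan14 and lay only just above 0.05, so the count of 0 hangs on a narrow margin. Zkscan14 had 24.9 and 26.9 CPM in Mdivi-1 libraries against 45.8 and 43.8 CPM in Control libraries. Zscan5b, the most abundant of those named, had 135 and 164 CPM in Mdivi-1 libraries against 213 and 195 CPM in Control libraries.

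The other 2C genes of the study's list had a median log2 fold change of 0.40 over 87 tested, against 0.03 over all genes, and 57 of them were positive, where 51.3% of all genes were. Without Control replicate 1 the median was 0.13, below the 0.21 of all genes in that fit, and without Control replicate 2 it was 0.63, against 0.08. DESeq2 called 8 of them higher and 2 lower, where it called 3.3% and 2.8% of all genes, and 32 had both Mdivi-1 libraries above both Control libraries and 15 had both below, against 26.1% and 23.9% of all genes. The smallest p by edgeR belonged to Os9, a protein of endoplasmic reticulum quality control, with 19.8 and 19.7 CPM in Mdivi-1 libraries against 2.18 and 1.71 CPM in Control libraries. Eif4a3l1, a relative of an RNA helicase, had 198 and 249 CPM in Mdivi-1 libraries against 46.3 and 86.9 CPM in Control libraries, and Pramel19 had 96.7 and 81.4 CPM against 16.9 and 34.2 CPM. In the other direction, Pramel7, which maintains naive pluripotency in mouse ESCs, had 156 and 155 CPM in Mdivi-1 libraries against 311 and 546 CPM in Control libraries (log2 fold change -1.46, adjusted p = 0.166 by edgeR and adjusted p = 0.00163 by DESeq2). The 6 genes described here had a median of 1.53. Whether the study drew up its list with these libraries known is not stated, so the list is not independent evidence of its direction.

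Of the 8 markers of 2C embryos, 5 are also in the study's list. The log2 fold change was positive in all 8 (median 1.14), against 51.3% of all genes. At an unadjusted p under 0.05 by edgeR 2 were higher, against 8.27% of all genes. DESeq2 called 1 higher, against 3.3%. Both Mdivi-1 libraries lay above both Control libraries in 4 of the 8, against 26.1% of all genes. The groups overlapped in Tcstv1, Tcstv3, Usp17le and Duxf3. Eif1ad3, a 2C transcript, had 1788 and 1749 CPM in Mdivi-1 libraries against 330.0 and 871 CPM in Control libraries. Summed over the 8, the level was 2872 and 2796 CPM in Mdivi-1 libraries against 653 and 1907 CPM in Control libraries. Control replicate 1 was by far the lowest. It was also the lowest library for Zscan4d, Zscan4f and Zfp560, whereas Zscan4b, Zscan4c and Zfp352 were lowest in Control replicate 2.

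Some transcripts stored by the oocyte were also higher in Mdivi-1 libraries. Of 12 such markers, 11 were positive on the log2 scale (median 0.80), against 51.3% of all genes. DESeq2 called 4 higher and 0 lower, against 3.3% and 2.8% of all genes, and edgeR called 0. Both Mdivi-1 libraries lay above both Control libraries in 7 of the 12, against 26.1% of all genes. Their summed level was 5424 and 8473 CPM in Mdivi-1 libraries against 2019 and 3915 CPM in Control libraries, and 0 of the 12 were at 0 in any library. Btg4, an adaptor of maternal mRNA decay, had 1650.4 and 3614 CPM in Mdivi-1 libraries against 379.8 and 656 CPM in Control libraries, with its highest level in Mdivi-1 replicate 2, as Zscan4d had. Bmp15, a growth factor of the oocyte, had 662 and 975 CPM in Mdivi-1 libraries against 184 and 273 CPM in Control libraries. In the other direction, Zp3, a protein of the zona pellucida, had 149 and 99.2 CPM in Mdivi-1 libraries against 198 and 269.5 CPM in Control libraries. The part of stored transcripts and of embryo stage in the levels of the 6 genes was not tested.

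**Figure D5:**
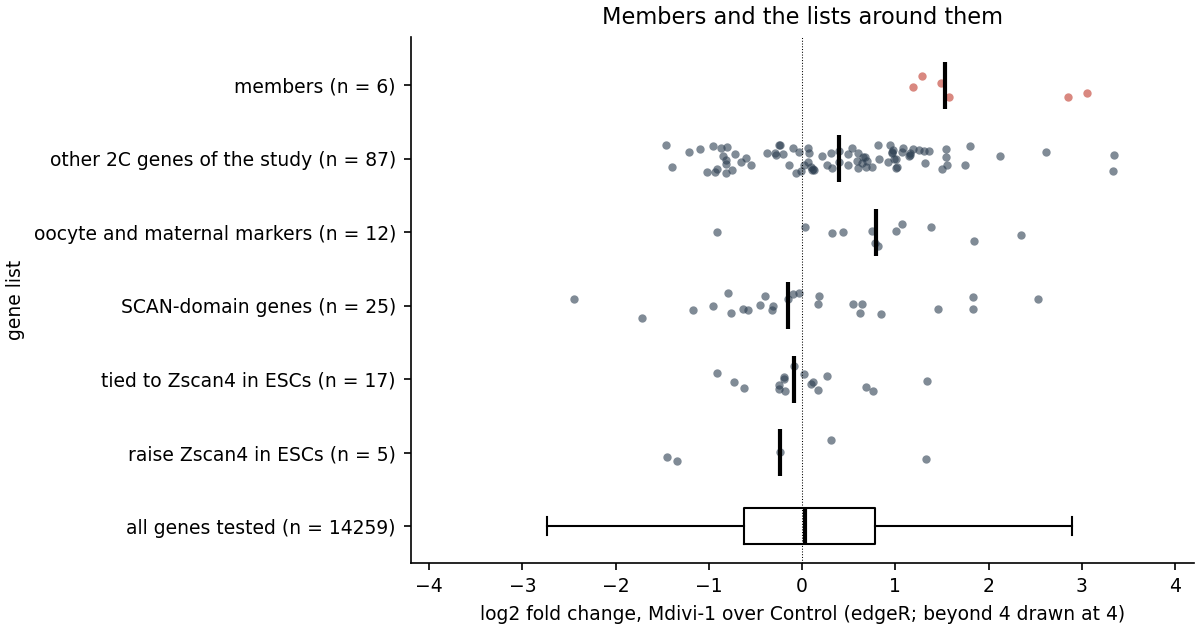
Log2 fold change, Mdivi-1 over Control, by edgeR of the 6 genes, of the lists around them and of all genes tested. All 6 genes lie right of 0, with a median of 1.53, against 0.80 for the oocyte markers, 0.40 for the other 2C genes (0.13 without Control replicate 1, where all genes have 0.21), -0.08 for the genes tied to ZSCAN4, -0.16 for the SCAN-domain genes and 0.03 for all genes.

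The nearest genes tested on either side, 10 for each place, did not all share the direction. They were not all close by, and lay up to 1432443 bases from the Zscan4 block, 4341812 from Zfp352 and 1670606 from Zfp560. Around the Zscan4 block 7 of 10 were positive and 2 were higher and 1 lower at an unadjusted p under 0.05 by edgeR, where 51.3%, 8.27% and 7.64% of all genes were. Zik1, a zinc finger gene 298848 bases below the block, had 6.07 and 8.76 CPM in Mdivi-1 libraries against 0.0910 and 0.131 CPM in Control libraries, and Vmn1r71, a vomeronasal receptor gene 39878 bases below it, had 0 and 0 CPM in Mdivi-1 libraries against 1.82 and 1.90 CPM in Control libraries. Around Zfp352, 6 of 10 were positive, among them the gene model Gm12633, 133920 bases above it, with 13.5 and 17.7 CPM in Mdivi-1 libraries against 1.23 and 3.48 CPM in Control libraries. Around Zfp560, 5 of 10 were positive. The smallest p belonged to Muc16, a mucin gene 1670606 bases below Zfp560, with 4.67 and 1.25 CPM in Mdivi-1 libraries and 0 and 0 CPM in Control libraries. Zfp317, 695405 bases below Zfp560, had 7.94 and 22.3 CPM in Mdivi-1 libraries against 73.4 and 22.2 CPM in Control libraries, of which replicate 1 stood apart. Zfp846, 196114 bases above Zfp560, had 15.6 and 23.6 CPM in Mdivi-1 libraries against 7.19 and 7.55 CPM in Control libraries.

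Among 7096 genes with a mean of at least 10 CPM, the profile most like each of these genes was found by the Euclidean distance between centred log2 CPM over the 4 libraries. The sum of the Zscan4 copies lay nearest to Sec22a (0.08), Ripk1 (0.13), Elovl7 (0.13), Tcl1 (0.24) and Pramel21 (0.25). Zfp352 lay nearest to Odf2 (0.11), Suclg2 (0.13), Wee2 (0.15), Zcchc2 (0.15) and Fam107b (0.18). Zfp560 lay nearest to Rnf168 (0.05), Ccdc122 (0.06), Plac8 (0.07), Scg3 (0.08) and Selenow (0.10). The distances are on the log2 scale, and with 4 points per gene among 7096 genes such closeness is a description only.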

How the data were processed

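RNA of late 2C embryos was measured in 2 Mdivi-1 and 2 Control libraries, grouped by the labels. The authors trimmed reads with cutadapt (version 1.16 in the submitters' processing notes), mapped them with STAR to mm10 and deposited counts of uniquely mapped reads per gene. The authors' deposited signal is the count divided by a size factor. The deposited log2 fold changes with their standard errors, Wald score and p-values are the authors' own comparison and were not used. Of 25995 rows found in GENCODE M21, 614 had the same start and end, so coordinates are from GENCODE M21.

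Genes were kept by filterByExpr (minimum count 10), normalized by TMM and tested two-sided with edgeR 4.0.16 (quasi-likelihood) in R 4.3.3, with p-values adjusted by Benjamini and Hochberg's method over all 14259 genes. Standard errors were worked back from the F statistic. The biological coefficient of variation was 0.66. DESeq2 1.42.0, limma-voom (limma 3.58.1), edgeR's likelihood ratio test, other scalings and filters, a replicate block and each library left out were alternatives. The tests were also run on simulated counts. There, every gene had the same coefficient of variation, smaller than the 0.66 found here, so that run does not show how the tests perform on these libraries. Replicates of one group gave a chi-square of 52.9 (Mdivi-1) and 115 (Control) per degree of freedom, more than counting noise gives, and each was counted as a sample.

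All members were named, with Zscan4a, up to 4 genes of each list by smallest p and the 5 nearest profiles. The text names fewer for some lists. The members and lists were chosen with earlier results of these data known. Of the 6 regulators listed, 5 had a row. Transcripts for sperm (6.07 and 2.61 CPM in Mdivi-1, 1.91 and 0 CPM in Control), blood (56.1 and 48.1 CPM against 60.5 and 58.5 CPM) and oviduct (329 and 244 CPM against 343 and 399 CPM, nearly all Epcam) were summed as further marker lists.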

Additional observations from a re-analysis of the deposited data

How the results depend on the processing

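By edgeR's quasi-likelihood test, 0 genes and 0 of the 6 genes described passed an adjusted p of 0.05, as they did with DESeq2's size factors, library totals, or a filter of 1 CPM in 2 libraries. Without the filter on low counts 819 genes and 6 of the 6 passed. The counts were 853 and 6 with DESeq2, 202 and 3 with limma-voom, and 870 and 5 with the likelihood ratio test. Leaving out 1 library, which leaves a single library in its group, edgeR called 0 to 803 genes and 0 to 4 of the 6. DESeq2 then called 0 to 6 of the 6, in fits added after seeing the data. When a library was left out, the log2 fold changes of the 6 ran from 0.66 (Zscan4d without Mdivi-1 replicate 2, edgeR) to 4.76 (Zscan4c without Control replicate 1, edgeR). Without each library in turn, the DESeq2 calls were 1380 (Control replicate 1), 771 (Control replicate 2), 82 (Mdivi-1 replicate 1) and 202 (Mdivi-1 replicate 2). With library totals, 1287 genes were higher and 769 lower at an unadjusted p under 0.05, against 1179 and 1089 with TMM, and the median log2 fold change of all genes was 0.14 in place of 0.03. The log2 ratio of the summed Zscan4 copies was 1.67, and 1.13 without Mdivi-1 replicate 2 to 2.07 without Mdivi-1 replicate 1. The median of the genes tied to ZSCAN4 turned to 0.013 without Control replicate 1, and was -0.42 without Control replicate 2. The cause of these changes was not tested. Over 16 or 17 alternatives each, all 6 genes kept a positive log2 fold change. These alternatives reuse the same counts, in which the groups did not overlap for any of the 6, so they are no independent support for the direction.

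Whether libraries with the same replicate number belong together is not stated in the sources used here. The deviations of the libraries numbered 1 had a correlation of 0.0081 over all genes tested. Over genes with a mean log2 CPM above 5 it was -0.041. With 2 libraries a group, such a correlation cannot settle whether they are paired. With the replicate block 0 genes passed, and Zfp352 had an adjusted p of 0.127 and Zfp560 of 0.213.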
